A study of Homo sapiens with 4 samples.

Results

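p53 target genes were followed in 2 human cell lines treated with decitabine (DAC), a cytidine analog that lowers DNA methylation. The list holds 32 genes, chosen by symbol with no expression value in the rule, and 30 of them had a probe set that the array annotation assigns to 1 gene symbol, with 86 such probe sets among the 49395 on the array. For BTG2 and FDXR no probe set was matched, and they were not analysed here. MDS-L is a human myelodysplastic syndrome cell line that needs IL-3 to grow and was cultured with it, and SKM-1 cells come from a human leukemia that arose out of myelodysplastic syndrome. Cells of each line received DMSO, the solvent, or 5 pulses of 24 h with 1 µM DAC over 5 days, and RNA of the whole culture was then hybridised to Affymetrix PrimeView arrays. Each of the 4 conditions, MDS-L with DMSO, MDS-L with DAC, SKM-1 with DMSO and SKM-1 with DAC, has 1 array. No condition has a replicate, and no genotype of the lines at the p53 gene is given in the sources used here.

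p53 is a transcription factor that is stabilised when DNA is damaged or when other stresses act on a cell. It binds a consensus sequence near its target genes and raises their transcription. The products halt the cell cycle, repair DNA, change metabolism or lead to apoptosis, and some of them, with MDM2 first, close a feedback loop that has p53 degraded. DAC is built into DNA during replication, where it traps DNA methyltransferases and thereby gives rise to DNA damage beside the loss of methylation.

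The target genes differ in the sequence just before their start. In RefSeq promoter windows of GRCh38.p14, cut to the 250 bases before the start, 28 members had 39 windows. One motif was searched, the p53 consensus decamer, of which a full binding site holds a pair and which reads the same on both strands. It was present in 6 of the 39 windows (15.4%), those of AEN, FAS, FDXR, PLK2, RPS27L and SESN1, and in 1957 of 35116 windows of all genes (5.57%). A match is a description of the letters and does not show binding, and p53 sites can also lie in introns or farther upstream, outside these windows. By the probe set with the highest mean level, AEN and RPS27L were the members of these 6 that differed at least 1.5-fold after DAC. They are shown with the decamer in capitals, and each sequence runs 5′ to 3′ on the strand of its gene. The decamer lies 34 to 25 bases before the start of AEN (chr15:88621090-88621339, plus strand) and 59 to 50 bases before that of RPS27L (chr15:63157478-63157727, minus strand).
AEN: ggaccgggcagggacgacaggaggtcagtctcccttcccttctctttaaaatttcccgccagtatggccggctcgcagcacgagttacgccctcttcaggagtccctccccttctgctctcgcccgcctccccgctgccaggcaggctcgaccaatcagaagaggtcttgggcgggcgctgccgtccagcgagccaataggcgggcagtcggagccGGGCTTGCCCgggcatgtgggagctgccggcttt
RPS27L: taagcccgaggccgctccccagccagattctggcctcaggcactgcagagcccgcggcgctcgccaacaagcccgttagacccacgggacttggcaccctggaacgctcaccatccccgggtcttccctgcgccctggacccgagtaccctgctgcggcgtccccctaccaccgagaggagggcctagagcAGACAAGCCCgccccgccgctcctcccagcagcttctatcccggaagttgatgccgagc
SFN and SESN2 were chosen after their values were seen, because they were at least 1.5-fold higher in both cell lines after DAC. They are shown with every CG, the dinucleotide at which human DNA is methylated, in capitals. The window of SFN (chr1:26862899-26863148, plus strand) holds 3 CG and that of SESN2 (chr1:28259268-28259517, plus strand) holds 19, against a median of 20 over the members' windows, which ran from 2 to 38, and of 11 over all windows. Methylation itself was not measured in these arrays.
SFN: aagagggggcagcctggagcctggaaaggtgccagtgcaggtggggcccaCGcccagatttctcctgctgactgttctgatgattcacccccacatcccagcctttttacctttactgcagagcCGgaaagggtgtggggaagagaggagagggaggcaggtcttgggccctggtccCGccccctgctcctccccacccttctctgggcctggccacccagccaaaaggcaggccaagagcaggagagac
SESN2: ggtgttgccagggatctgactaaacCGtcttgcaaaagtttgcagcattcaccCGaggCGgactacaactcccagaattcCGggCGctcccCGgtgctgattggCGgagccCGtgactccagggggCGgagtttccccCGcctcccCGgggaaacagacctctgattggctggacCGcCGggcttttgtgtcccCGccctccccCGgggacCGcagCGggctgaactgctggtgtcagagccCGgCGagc

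All values are on the log2 scale, so that 1 unit is a 2-fold difference, and a difference is DAC minus DMSO within a cell line. Where a gene had several probe sets, the one with the highest mean level was used. The background level was taken from 359 probe sets of olfactory receptors, genes that are silent in most tissues, and stood at 5.09 for the MDS-L arrays and at 5.07 for the SKM-1 arrays. A value under it was raised to it, and a difference that starts or ends there is a bound, written "at least". Between 28 and 30 of the 30 members lay above background on each array, and their median level was 7.78 and 7.72 in MDS-L with DMSO and DAC, and 7.25 and 7.22 in SKM-1. The deposited values ran from 2.11 to 14.99, and 59.5% to 60.9% of probe sets lay above background. Of 9 myeloid and progenitor markers with a probe set, 8 and 9 lay above background in MDS-L with DMSO and DAC, and 7 in SKM-1 with either treatment. KIT, a receptor of progenitor cells, did not in SKM-1, and HLA-DRA did not in SKM-1 with DMSO, at 3.77. Of 4 T cell markers, 0 lay above background in MDS-L with DMSO and 3 with DAC, where CD2, a T cell adhesion molecule, went from 4.69 to 6.28, whereas 1 of 4 did so in SKM-1 with either treatment. Of 3 fibroblast markers, 1 and 2 did so in MDS-L, where COL3A1 went from 4.48 to 6.96, and 1 did so in SKM-1 with either treatment. Of 2 erythroid markers, 1 did so with DMSO and 2 with DAC in each line, whereas the counts were equal with DMSO and DAC for B cell markers (1 of 2) and epithelial markers (1 of 3 in MDS-L, 2 of 3 in SKM-1). KRT8, the 1 epithelial marker above background in MDS-L, went from 5.29 to 6.25 there. The median level of the T cell markers was 4.73 and 5.37 in MDS-L with DMSO and DAC. The 90th percentile of the olfactory receptors was higher with DAC too, at 4.84 and 5.09 in MDS-L and 4.88 and 5.07 in SKM-1. The part of these markers in the results was not tested.

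In MDS-L cells 2 of the 30 target genes were at least 2-fold higher after DAC, ZMAT3 and SESN2 (3.39% of all 12421 measured genes), and 0 were at least 2-fold lower, against 3.25% of all genes. At 1.5-fold, SFN, GDF15 and EPHA2 joined the higher genes, which made 5 of 30 (8.7% of all genes), and AEN and PIDD1 were lower, which made 2 of 30 (10.9% of all genes). The difference lay above 0 for 14 of the 30 members and for 52.7% of all genes. The median was -0.03 over the members and 0.02 over all measured genes. In SKM-1 cells 29 members were measured, all but EPHA2, and 2 were at least 2-fold higher, SFN and RPS27L (2.72% of all 12522 measured genes), and 0 were at least 2-fold lower (1.45% of all genes). At 1.5-fold, SESN2, TP53I3, PLK3, PIDD1 and NINJ1 were higher as well, 7 of 29 in all (9.54% of all genes), and 0 were lower (9.29% of all genes). The difference lay above 0 for 16 of the 29 members and for 54.1% of all genes, with a median of 0.05 over the members and 0.04 over all genes. These counts carry no test, because 1 array per condition leaves no spread to compare them with. An array of the whole culture cannot tell fewer cells that express a gene from less of its RNA in each cell.

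**Figure D1:**
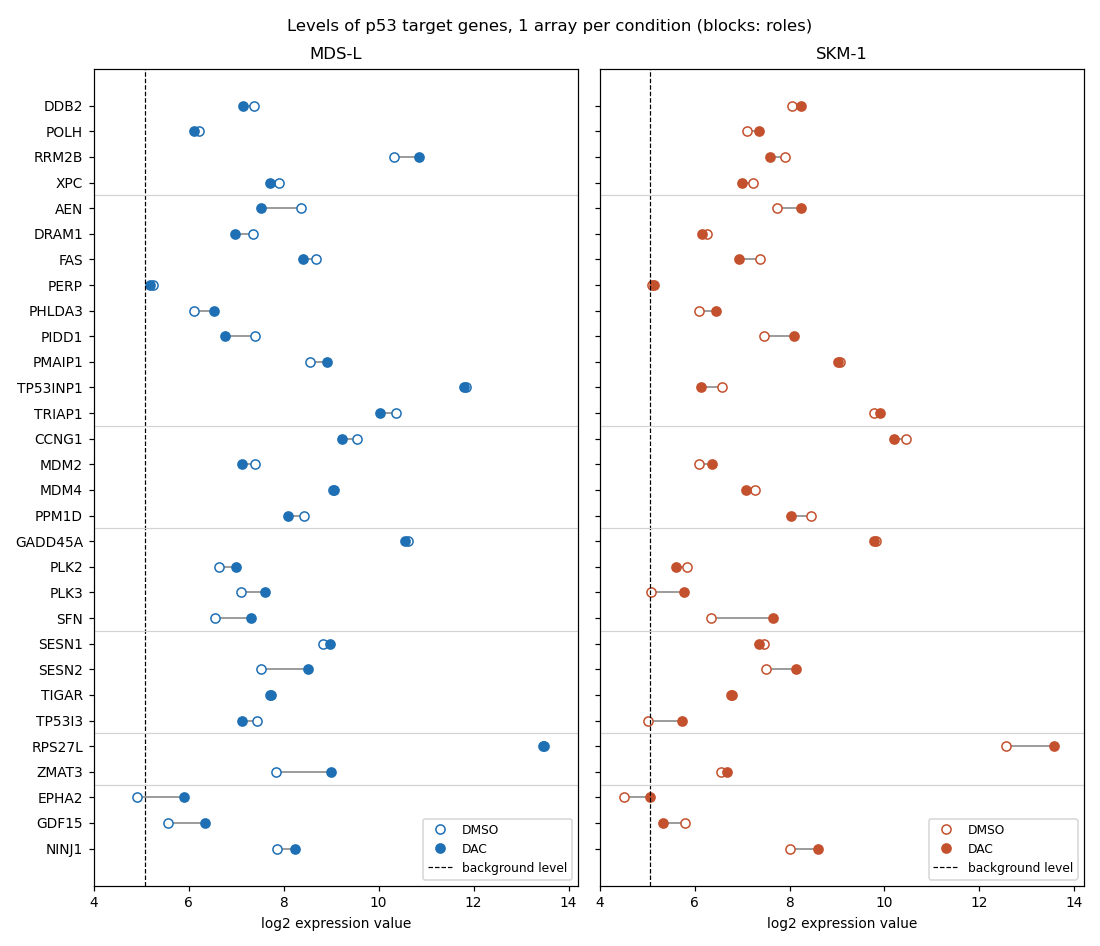
Log2 expression value of the 30 measured p53 target genes on the 4 arrays, in blocks by role, with open circles for DMSO, filled circles for DAC, 1 array per circle, and a dashed line at the background level. SFN and SESN2 were at least 1.5-fold higher with DAC in both panels, whereas AEN and PIDD1 lay lower with DAC in MDS-L cells and higher with it in SKM-1 cells.

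The genes of the feedback loop differed by less than 1.5-fold in the probe sets used. MDM2, the ubiquitin ligase that has p53 degraded, read 7.40 with DMSO and 7.12 with DAC in MDS-L cells, and 6.10 and 6.37 in SKM-1 cells. It was thus 1.22-fold lower in one line and 1.20-fold higher in the other. Its 11 probe sets did not tell a uniform story, since in MDS-L cells the 5 that lay above background on both arrays differed by -0.54 to 0.37. MDM4, its partner that inhibits p53, PPM1D, a phosphatase that acts on p53 and its kinases, and CCNG1, the cyclin G1, ranged from -0.35 to 0.02 in MDS-L cells and from -0.43 to -0.19 in SKM-1 cells. Other probe sets were lower in SKM-1 cells, by 1.72-fold and 1.58-fold for MDM4 and by 1.53-fold for PPM1D. Of the 4 genes 3 lay below 0 in each line, and the medians were -0.30 and -0.21.

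Of the genes that halt the cell cycle, SFN was higher in both lines. SFN encodes 14-3-3 sigma, which holds cells before mitosis, and it read 6.55 with DMSO and 7.32 with DAC in MDS-L cells, a 1.70-fold difference. In SKM-1 cells it went from 6.35 to 7.64, which is 2.44-fold, the largest difference of any member in that line. The levels with DMSO lay close together in the lines, and both DAC arrays lay above both DMSO arrays. With a stricter background level, the 99th percentile of olfactory receptors, the MDS-L difference of SFN was 0.44, under 1.5-fold. PLK3, a kinase of the stress response, was higher with DAC in each line, from different levels with DMSO. It went from 7.09 to 7.60 in MDS-L cells (1.42-fold) and from 5.09 to 5.77 in SKM-1 cells (1.60-fold), where the DMSO value stood at the background level. GADD45A, a stress sensor that binds PCNA, and PLK2, a polo-like kinase, differed by -0.08 and 0.37 in MDS-L and by -0.06 and -0.23 in SKM-1.

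The metabolic targets held SESN2, which beside SFN was the other member at least 1.5-fold higher in both lines. SESN2 is a sestrin that senses leucine and restrains mTORC1, and it read 7.52 and 8.52 in MDS-L cells, a difference of 1.00 (2-fold), and 7.50 and 8.14 in SKM-1 cells, a difference of 0.64 (1.56-fold). Its levels with DMSO were nearly equal in the lines, and both DAC arrays lay above them. SESN1, its paralog, differed by 0.16 and -0.11, and TIGAR, a phosphatase that slows glycolysis, by 0.02 and 0.01. TP53I3, a quinone oxidoreductase, read 7.43 and 7.11 in MDS-L cells, which is 1.25-fold lower. In SKM-1 cells it lay under background with DMSO, at 5.01, and reached 5.74 with DAC, so it was at least 1.59-fold higher.

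The pair of genes that act on RNA or in the ribosome were each over 2-fold higher in 1 line and within 1.1-fold of DMSO in the other. ZMAT3, a zinc finger protein that binds RNA and governs splicing, went from 7.85 to 9.0 in MDS-L cells, which is 2.23-fold. This was the largest difference of any member in that line in the probe sets used. In SKM-1 cells it read 6.55 and 6.68, a 1.10-fold difference. RPS27L, a ribosomal protein that stabilises p53, showed the reverse. It read 13.47 with DMSO and 13.45 with DAC in MDS-L cells, and 12.56 and 13.58 in SKM-1 cells, a difference of 1.01 (2.02-fold).

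Of the 9 apoptosis genes 2 lay above 0 and 7 below in MDS-L cells, with a median of -0.28. Over all genes 52.7% lay above 0. Of the 9 genes 2 were at least 1.5-fold lower (10.9% of all genes). AEN, a nuclease of apoptotic cells, read 8.37 with DMSO and 7.52 with DAC, and was 1.81-fold lower. This was the lowest difference of any member in the probe sets used. In SKM-1 cells it went from 7.74 to 8.23, which is 1.41-fold higher. PIDD1, the core of a complex that activates caspase-2, had the same pattern. It went from 7.40 to 6.77 in MDS-L cells (1.55-fold lower) and from 7.46 to 8.10 in SKM-1 cells (1.56-fold higher). AEN and PIDD1 have a single probe set each, so no second probe set bears on these values. The same holds for SFN, PLK3, TP53I3 and NINJ1, and the other probe sets of RPS27L and EPHA2 lay under background on every array. In SKM-1 cells 5 of the 9 genes lay above 0 and 4 below, with a median of 0.05, and 54.1% of all genes lay above 0. FAS, a death receptor, differed by -0.28 and -0.45, and PMAIP1, the BH3-only protein NOXA, by 0.36 and -0.04. The others were PERP, a membrane protein near background on every array, TRIAP1, an inhibitor of apoptosis, DRAM1, a lysosomal protein of autophagy, TP53INP1, which acts in cell death and autophagy, and PHLDA3, an inhibitor of AKT. In the probe sets used they ranged from -0.37 to 0.41 in MDS-L cells and from -0.43 to 0.36 in SKM-1 cells. By other probe sets, given below, PHLDA3 was further up and DRAM1 further down in MDS-L cells.

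The DNA repair genes differed by less than 1.5-fold in either line in the probe sets used. XPC and DDB2, which recognise damage for nucleotide excision repair, and POLH, a polymerase that copies past lesions, differed by -0.23 to -0.11 in MDS-L cells and by -0.23 to 0.24 in SKM-1 cells. RRM2B, the ribonucleotide reductase subunit that p53 induces, read 10.33 and 10.86 in MDS-L cells (1.44-fold higher) and 7.91 and 7.58 in SKM-1 cells (1.25-fold lower). Its 9 probe sets lay above background in MDS-L cells and disagreed, with differences from -0.56 to 0.64.

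Of the secreted and surface proteins, GDF15, a stress cytokine of the TGF-beta family, went from 5.56 to 6.35 in MDS-L cells (1.74-fold higher) and from 5.81 to 5.33 in SKM-1 cells (1.40-fold lower). EPHA2, a receptor tyrosine kinase, lay under background in MDS-L cells with DMSO, at 4.91, and reached 5.90 with DAC, so it was at least 1.76-fold higher. It lay under background on both SKM-1 arrays, at 4.52 and 5.06. NINJ1, which ruptures the membrane of dying cells, read 7.85 and 8.23 in MDS-L cells (1.31-fold) and 8.02 and 8.61 in SKM-1 cells (1.5-fold). GDF15 and EPHA2 thus lay near background, whereas NINJ1 was well above it on every array.

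The probe sets of a gene did not always give the same difference. Of the members with 2 or more probe sets above background on both arrays of a line, all of a gene's probe sets pointed one way for 13 of 18 in MDS-L cells (72.2%, against 68.2% of all such genes) and for 12 of 16 in SKM-1 cells (75.0%, against 70.9%). MDM2 and MDM4 had probe sets in opposite directions in both lines. The pooled standard deviation of the differences between probe sets of a member was 0.35 for the MDS-L arrays and 0.21 for SKM-1, which leaves out the spread between samples. SESN2 was higher by both of its probe sets, the other one going from 7.20 to 7.84 in MDS-L cells and from 6.89 to 7.81 in SKM-1 cells. ZMAT3 was higher in MDS-L cells by both, but the other one gave only 0.42 (6.37 to 6.79), and it gave -0.20 in SKM-1 cells (5.63 to 5.43). The ZMAT3 probe set used is of a type whose probes may also match transcripts of other genes, as is that of GDF15. GDF15 was lower in SKM-1 cells by the probe set used and 0.15 higher by another.

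With every probe set above background allowed to count, 4 members were at least 2-fold higher in MDS-L cells, with PHLDA3 and TIGAR beside ZMAT3 and SESN2 (4.02% of all genes were higher in this way). TIGAR differed by 0.02 in the probe set used, at 7.70 and 7.72, and by 1.38 in the other one, which went from 7.35 to 8.74 (2.61-fold) and lay under background in SKM-1 cells. PHLDA3 was 1.33-fold higher in the probe set used, 2.01-fold higher in another (5.50 to 6.50) and at least 2.81-fold higher in the third, which went from 4.84, under background, to 6.58. DRAM1 was the 1 member at least 2-fold lower in this way (5.66% of all genes), with 7.55 and 6.47 (2.12-fold) in one probe set and 7.34 and 6.97 in the other. In SKM-1 cells the genes counted in this way were again SFN and RPS27L, 2 of 29 (3.41% of all genes), and 0 were lower (4.48% of all genes).

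**Figure D2:**
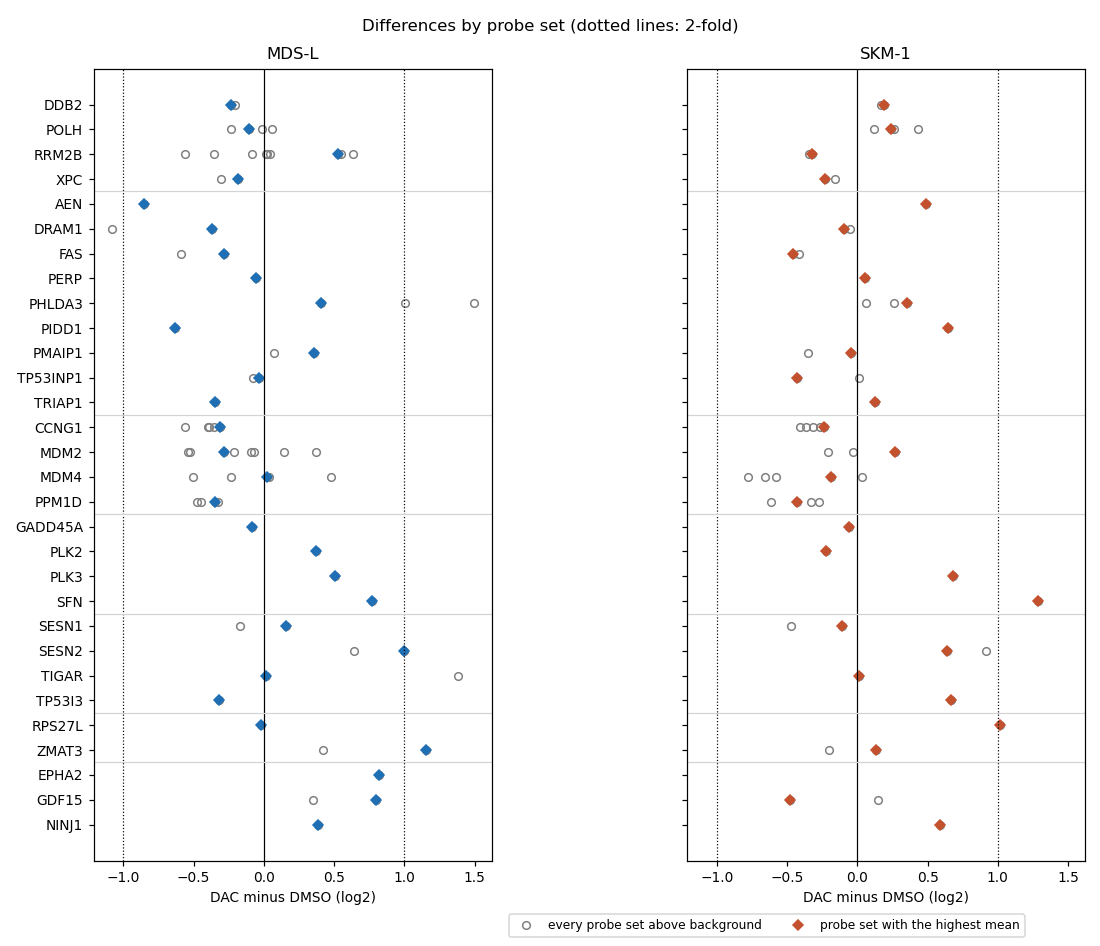
DAC minus DMSO (log2) of each p53 target gene in MDS-L (left) and SKM-1 (right), with a diamond for the probe set used and open circles for every probe set above background on at least 1 array of the line, after values under background were raised to it. TIGAR, PHLDA3 and DRAM1 reach 2-fold in MDS-L only in probe sets other than the one used, and SESN2 lies to the right of 0 with both.

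Set side by side, the lines shared few of these differences. SFN and SESN2 were at least 1.5-fold higher in both, 2 of the 29 members measured in both lines (1.56% of all 11727 such genes), and 0 were at least 1.5-fold lower in both (2.23% of all genes). The differences had opposite signs in 15 of the 29 members and in 35.7% of all genes. AEN, PIDD1, RPS27L, TP53I3 and GDF15 were among these 15, and a difference between the lines in the response to DAC could not be tested with 1 array per condition. The effect of DAC common to both lines was tested by limma over all 11727 genes with cell line as a block, which treats the lines as the only replicates. It called 0 of the 29 members and 0 of all genes (0.0%) at an adjusted p of 0.05, and the lowest adjusted p of any gene was 0.43. At an unadjusted limma p under 0.05, 5.63% of all genes were higher with DAC and 5.77% lower, 11.4% in both directions. Of the 29 members, 0 were lower and 3 were higher at this p. These were SFN (log2 difference 1.03, SE 0.23, adjusted p = 0.43 by limma), SESN2 (0.82, SE 0.24, adjusted p = 0.43 by limma) and PLK3 (0.59, SE 0.17, adjusted p = 0.43 by limma). MDM2 had a common difference of -0.01 (SE 0.22, adjusted p = 0.988 by limma).

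**Figure D3:**
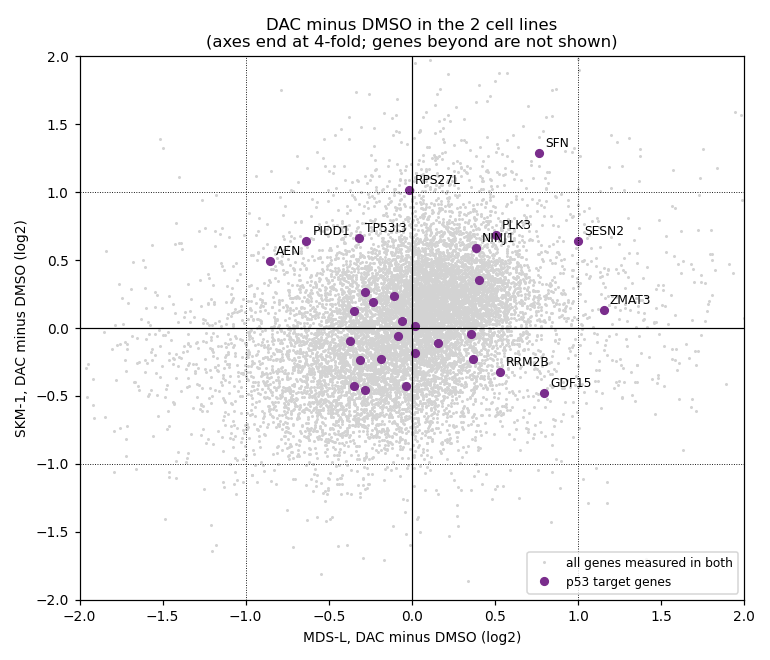
DAC minus DMSO (log2) in MDS-L (horizontal) and in SKM-1 (vertical) for the genes measured in both lines, grey points for all genes and purple points for the 29 p53 target genes, with dotted lines at 2-fold. SFN and SESN2 lie at the upper right, ZMAT3 lies to the right near the horizontal line at 0, RPS27L lies on the vertical line at 0, and AEN and PIDD1 lie at the upper left.

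Many of these genes stood at another level in the other line, with DMSO and with DAC alike. Over both treatments, limma called 14 of the 30 members between the lines at an adjusted p of 0.05, against 27.2% of all 13216 genes measured in either line. Of these, 12 were lower in SKM-1 (13.8% of all genes) and 2 were higher (13.4% of all genes), and the median of SKM-1 minus MDS-L was -0.41 over the members and 0.01 over all genes. The members named here are those with the lowest adjusted p or the largest fold, and were chosen after their values were seen. TP53INP1 read 11.83 and 11.80 in MDS-L cells and 6.57 and 6.14 in SKM-1 cells, which is 43.9-fold lower in SKM-1 (log2 difference -5.46, SE 0.24, adjusted p = 0.00266 by limma). RRM2B was 7.18-fold lower in SKM-1 (-2.84, SE 0.30, adjusted p = 0.00708 by limma), PLK3 3.77-fold (-1.92, SE 0.18, adjusted p = 0.00594 by limma) and MDM4 3.68-fold (-1.88, SE 0.23, adjusted p = 0.00988 by limma). The SKM-1 arrays lay below the MDS-L arrays with either treatment for all of them. For TP53INP1 the size of the gap depended on the probe set. Its other probe set read 6.00 and 5.92 in MDS-L cells and 5.02 and 5.09 in SKM-1 cells, the latter near background. The gap there was only -0.98 with DMSO and -0.84 with DAC.

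TP53I3 was at least 3.65-fold lower in SKM-1, where its DMSO value lay under background, ZMAT3, SESN1 and FAS were 3.50-, 2.82- and 2.60-fold lower, and PLK2, MDM2, DRAM1 and TIGAR were lower as well, with adjusted p from 0.0166 to 0.0396 by limma over these 8 genes. Of the 12 members lower in SKM-1, 8 had a wider gap between the lines with DAC than with DMSO and 4 a narrower one. The matching share of all genes was not computed, so this count cannot be judged. TIGAR, among the 8, went only from -0.926 to -0.930. The gap widened most for ZMAT3, from -1.30 with DMSO to -2.32 with DAC, and for RRM2B, from -2.42 to -3.27. It narrowed most for TP53I3, from -2.42 to -1.38, where the SKM-1 value with DMSO lay under background. The members higher in SKM-1 were POLH, at 7.11 and 7.35 against 6.22 and 6.11 (2.09-fold, adjusted p = 0.0282 by limma), and CCNG1, at 10.44 and 10.21 against 9.55 and 9.24 (1.91-fold, adjusted p = 0.0388 by limma). GADD45A (adjusted p = 0.0546 by limma) and DDB2 (adjusted p = 0.0612 by limma) lay just outside the threshold. For the 11 called members with 2 or more probe sets above background, all probe sets of a gene pointed one way in 11, as they did in 95.1% of all genes called. The treatments stand in for replicates in this test, which therefore rests on 1 residual degree of freedom and leaves out the spread between cultures of a line.

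**Figure D4:**
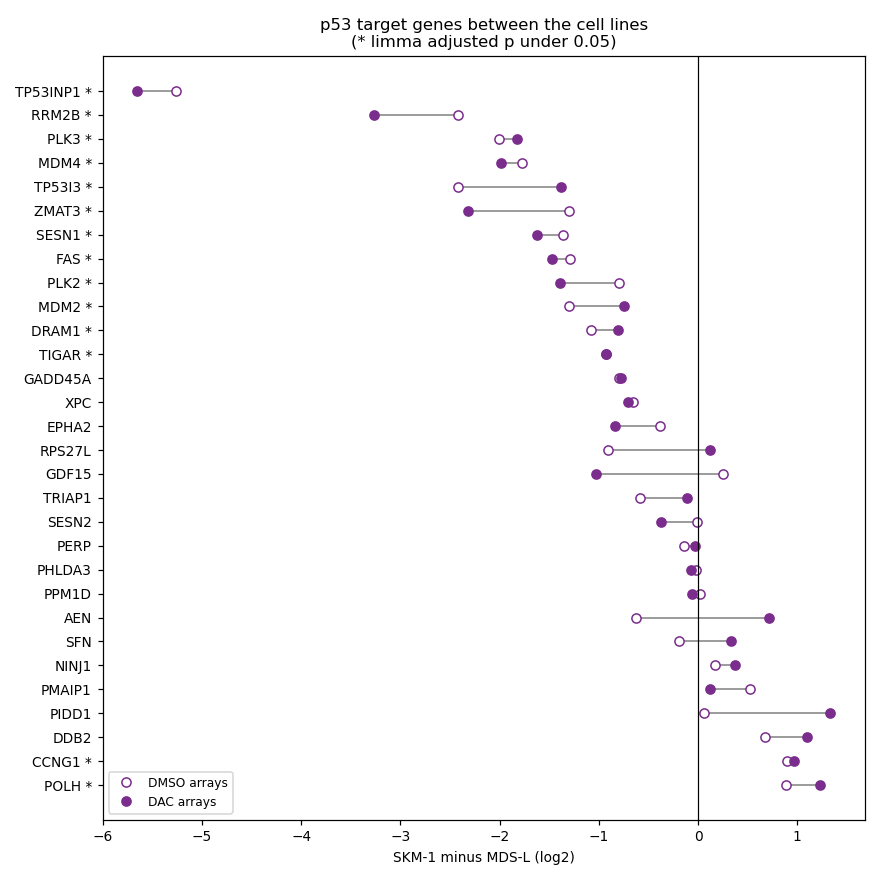
SKM-1 minus MDS-L (log2, deposited values) of the 30 p53 target genes, with an open circle for the DMSO arrays and a filled circle for the DAC arrays, ordered by the limma difference, and an asterisk for an adjusted p under 0.05. The 12 called genes left of 0 are led by TP53INP1, and CCNG1 and POLH lie right of 0.

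Genes around the p53 pathway were set beside the members. Of 40 further p53 targets, 35 were measured in MDS-L cells, where 2 passed 2-fold in each direction (3.39% of all genes were as much higher and 3.25% as much lower), with a median of 0.20. CDKN1A, the p21 inhibitor of cyclin-dependent kinases, was 1.95-fold higher there, SERTAD1, a regulator of CDK4, 2.27-fold, and TNFRSF10B, a receptor of TRAIL, 2.21-fold, whereas E2F7, a repressor of cell cycle genes, was 2.52-fold lower and PCNA, the replication clamp, 2.37-fold lower. In SKM-1 cells 37 were measured, 3 were at least 2-fold higher (2.72% of all genes) and 2 lower (1.45% of all genes), with a median of -0.02. TRIM22, an antiviral ubiquitin ligase, was 2.90-fold higher, FUCA1, a fucosidase, 2.29-fold and SERTAD1 2.28-fold, whereas KITLG, the stem cell factor, was 2.61-fold lower and TNFAIP8 2.17-fold lower. SERTAD1, CDKN1A (1.76-fold in SKM-1) and FUCA1 (1.70-fold in MDS-L) were at least 1.5-fold higher in both lines, against 1.56% of all genes.

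Of 24 genes of the p53 family, its upstream kinases and its modifiers, 22 had a probe set. In either line 0 were at least 2-fold higher, against 3.39% of all genes in MDS-L cells and 2.72% in SKM-1 cells. The checkpoint kinases CHEK1 and CHEK2, 4.51- and 2.77-fold lower, were the 2 genes at least 2-fold lower in MDS-L cells (3.25% of all genes). ATM, which phosphorylates p53 after DNA breaks, was the 1 such gene in SKM-1 cells (1.45% of all genes), at 2.29-fold lower. The medians were 0.02 and -0.20. The 22 cell cycle genes that p53 lowers through p21 and the DREAM repressor complex all lay below 0 in MDS-L cells. Of all 12421 measured genes 5869 did so. The median of the list was -1.18, and 15 of its genes were at least 2-fold lower (3.25% of all genes). It was chosen with earlier results of these data known, so these counts are no test. CDC25A, a phosphatase of the G1 to S transition, was 5.98-fold lower, RAD54L, a recombination protein, 3.89-fold and BIRC5, or survivin, 3.42-fold. In SKM-1 cells 10 of the 22 lay above 0 and 12 below, with a median of -0.04. CENPF, a kinetochore protein, was the 1 gene at least 2-fold lower there (1.45% of all genes), at 2.53-fold, and PLK1, a mitotic kinase, was 1.71-fold higher. A list of 21 paralogs of the members, of which PLK1 is also among the cell cycle genes, had 19 genes measured in MDS-L cells. Of these, 3 were at least 2-fold higher (3.39% of all genes), led by BTG1, an antiproliferative protein, at 2.56-fold. Another 4 were at least 2-fold lower (3.25% of all genes), led by RRM2, the S phase partner of RRM2B, at 7.25-fold. In SKM-1 cells 18 paralogs were measured and 0 passed 2-fold in either direction, against 2.72% of all genes higher and 1.45% lower. limma called 0 genes of any of these lists for the common effect of DAC.

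**Figure D5:**
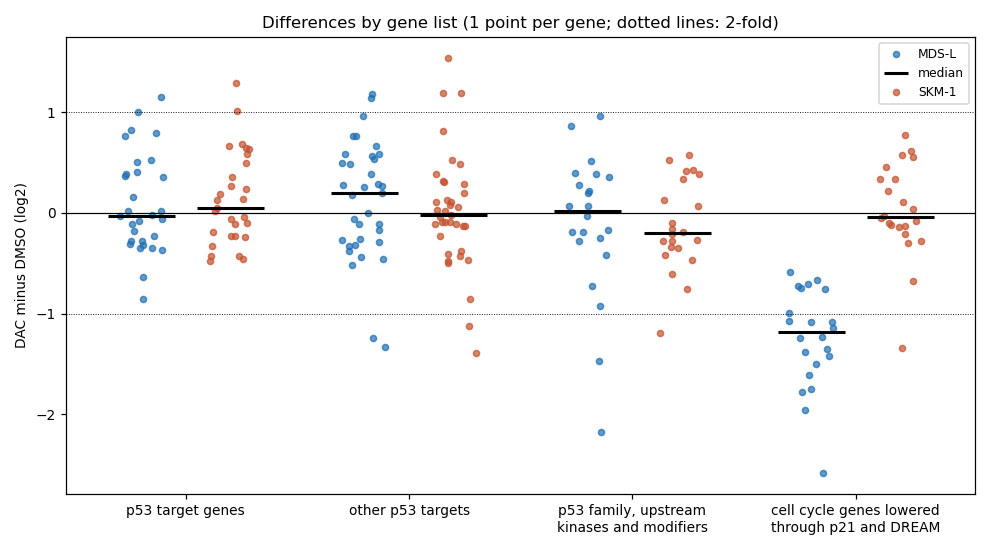
DAC minus DMSO (log2) of every measured gene of 4 lists, 1 point per gene, blue for MDS-L and orange for SKM-1, with the median as a black bar and dotted lines at 2-fold. The p53 target genes spread around 0 in both lines (medians -0.03 and 0.05), whereas the cell cycle genes lie below 0 in MDS-L (median -1.18) and around 0 in SKM-1 (median -0.04). The gene lists were chosen with earlier results of these data known.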

How the data were processed

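The 4 arrays hold RNA of MDS-L and SKM-1 cells and were grouped by the cell line and treatment in the labels. The authors deposited 1 log2 expression value per probe set and array. The methods name a GeneChip scanner and RMA normalization in Partek Genomics Suite without a version, whereas the submitters' processing notes name MAS5, and the methods name RNeasy where the labels name Trizol for RNA extraction. At equal rank the values of the 4 arrays lay within 0.18 (log2), and the deposited log2 values were used without a further transformation. The steps before them were not repeated, and such normalization removes any difference in total RNA between arrays.

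Symbols came from the platform annotation. Of the 49395 probe sets 44994 had 1 symbol, for 18132 genes, whereas 1832 had several and 2569 were not listed, and both were left out. The background level of a cell line was the 90th percentile of 359 olfactory receptor probe sets, on the higher of its 2 arrays. A gene was measured in a line if it lay above this level on at least 1 array. Within a line, genes past 2-fold or 1.5-fold were counted with no test. limma 3.58.1 in R 4.3.3 fitted cell line and treatment to all 4 arrays with a trend on mean expression, two-sided tests and p-values adjusted by Benjamini-Hochberg over all genes, with 1 residual degree of freedom. The fit and the counts were tested on simulated data. Python 3.11.15, numpy 2.4.6, pandas 2.3.3 and matplotlib 3.10.9 were used for the rest. Promoter windows came from RefSeq.

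The members and gene lists were chosen with earlier results of these data known. Values on every array are given for members at least 1.5-fold different in either line and for MDM2, the other members by ranges and examples, and up to 3 genes with the largest differences from each other list. The alternatives were other fold thresholds, floors, choices of probe set, scalings and limma settings, and the choice without probe sets that may match other genes was added after seeing the data. Precision is limited by the signal above background and by 1 array per condition, which gives no interval within a line. Samples of a group carry no statement on separate cultures.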

Additional observations from a re-analysis of the deposited data

Results flagged for a closer look

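Of the 12 members with values given on every array, which were chosen for a 1.5-fold difference in a line apart from MDM2, 11 were measured in both lines, and in 6 the response to DAC had opposite signs (35.7% of all genes). The response in SKM-1 cells minus that in MDS-L cells was 1.35 for AEN (log2), 1.28 for PIDD1, 1.03 for RPS27L, at least 0.98 for TP53I3, 0.55 for MDM2 and -1.28 for GDF15. None of these differences between the lines was tested, since each line has 1 array per treatment. Other probe sets do not show opposite signs for MDM2, where one was lower in both lines (-0.54 and -0.21), or for GDF15, where one was higher in both (0.35 and 0.15). The RPS27L value rests on SKM-1, as its difference in MDS-L was -0.02, or 0.04 when its probe sets were summarised by their median, and that of TP53I3 starts from a DMSO value under background in SKM-1.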

How the results depend on the processing

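The counts of members at least 2-fold higher rest on values close to that threshold, at 1.00 for SESN2 and 1.01 for RPS27L. In MDS-L the count of 2 became 1 with the median over the probe sets of a gene, 1 with differences centred on the median, 5 at 1.5-fold and 0 at 3-fold. In SKM-1 the count of 2 became 1, 1, 7 and 0 under the same settings, and in MDS-L the count of members lower went from 0 to 2 at 1.5-fold. The genes called between the lines went from 3595 to 5999 at an adjusted p of 0.15, the rate named in the methods, and the members called from 14 to 17. The other 64 values of counts, medians and calls, the 17 members among them, stayed near the main ones. They held 12 to 17 members called between the lines and 0 for the common effect. The median over the members ran from -0.06 to 0.01 in MDS-L, where quantile normalization made it positive, and from 0.01 to 0.13 in SKM-1. Of the values of single members 143 stayed near the main ones, 7 moved, and none of those with a main difference of 1.5-fold or more changed sign. ZMAT3 in MDS-L ran from 0.42, without probe sets that may match other genes, to 1.27, and in SKM-1 from -0.20 to 0.19. SFN ran from 0.44, with the 99th percentile as the floor and then under 1.5-fold, to 0.84 in MDS-L cells, and from 1.01 to 1.36 in SKM-1 cells. EPHA2 in MDS-L ran from 0.14 to 0.99, and RPS27L in SKM-1 from 0.66 to 1.02. Leaving out an array leaves no residual degree of freedom and gives no test. No paired analysis was possible because the labels give no replicate numbers and each condition has 1 array, and cell line is already a block in the common effect. Signal near background limits EPHA2, PERP, GDF15 and, in SKM-1, TP53I3 and PLK3.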
